A study of Homo sapiens with 14 samples.

Results

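The circular RNAs of the ribosome fraction of HepG2 cells, a human liver cancer line, were set against those of the nucleus. A circRNA was a member if the deposited ribosome table or the deposited nucleus table listed it, with entries matched between tables by the same chromosome, start and end. This gave 3465 circRNAs of the 11227 in the 6 tables of the series. There were 2899 in the ribosome table and 1302 in that of the nucleus, each from 2 libraries. All samples came from this cell line, with no treatment in the labels, and the labels name the fractions ribosome and nucleus without saying how they were separated. The other tables were of whole cells, cytoplasm, cytosol and exosomes. Total RNA of both fractions was depleted of ribosomal RNA, and libraries kept strand. The labels do not say whether the 2 libraries of a fraction came from separate cultures, so p-values measure the spread between these samples, which may be technical.

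A circRNA forms when the splicing machinery joins the end of an exon to the start of the same or an earlier exon, a back-splice, so that the RNA has no free ends. Most circRNAs that hold only exons are found in the cytoplasm, whereas those that keep an intron tend to stay in the nucleus. Cap-independent translation has been reported for a few of them, and finding a circRNA in a ribosome fraction does not by itself show that it is translated. The tables hold back-splice reads only, so the purity of the fractions was not measured here.

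Both catalogues had splice dinucleotides at each end whose sequence was read. Not every end in a RefSeq promoter window (GRCh38.p14) was read, so the counts of ends here do not cover all 3465 circRNAs. Such a window runs from 250 bases before to 50 bases after a gene start. On the other chromosomes an end inside a window was read for 39 circRNAs. All 40 such ends carried the AG that closes an intron just before the circRNA or the GT that opens one just after it, read in the sense of the host gene. They were 19 ends of ribosome-only, 14 of shared and 7 of nucleus-only circRNAs. At any position of the 35116 windows, on the strand of their gene, AG stood at 7.26% and GT at 4.62%. The callers may list only ends with these dinucleotides, which the sources used here do not state, so nothing is concluded from the match. The 10 ends below, chosen after their values were seen, show circRNAs that were higher, lower, not passed or listed on 1 side. Each line holds 12 bases on either side of the end, 5′ to 3′ on the plus strand, with the AG or GT in capitals.
CDYL, chr6:4892368-4892391: ttaacgggaaagGTgagtgtctag
POLD1, chr19:50398839-50398862: cttgcccagcAGgatggatggcaa
NAB1, chr2:190659146-190659169: tttttttggcAGgttaaacccatc
ERC1, chr12:1027736-1027759: ttttcattacAGatatggtgtaag
ARHGAP26, chr5:143057736-143057759: ccacttggcaaaGTaggtttaaga
BACH1, chr21:29305192-29305215: ctttcacattAGcaaaagactgtt
EPB41L5, shorter, chr2:120174989-120175012: tgtccattatttGTaggtaaaaaa
EPB41L5, longer, chr2:120174993-120175016: cattatttgtagGTaaaaaaagct
SNAPC1, first end, chr14:61762410-61762433: ctagtccgttAGaggcgtgcgggc
SNAPC1, second end, chr14:61762444-61762467: tgcgggcttcggGTgccatgggga

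The sequences differ in how well they are backed by reads. The CDYL end belongs to a circRNA of a chromodomain protein gene, with 203 and 116 reads in the ribosomal libraries against 31 and 43 in the nuclear ones. The POLD1 end belongs to a circRNA of the gene for the catalytic subunit of DNA polymerase delta, with 9 and 7 ribosomal reads against 11 and 8 nuclear reads. The circRNA of NAB1, a transcriptional corepressor gene, had 15 and 13 ribosomal reads and no nuclear entry. The paired EPB41L5 lines are entries of the caller headed Ciri alone that share a start and end 4 bases apart. Both had 32 and 15 ribosomal reads, and the nucleus listed only the longer one, with 7 and 5. The shorter EPB41L5 entry is therefore ribosome-only by its coordinates, although a nearly identical entry was listed in the nucleus. The SNAPC1 entry spans 34 bases between its ends, had 14 and 17 ribosomal reads from the Ciri caller alone, and was not listed in the nucleus.

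The ribosomal catalogue held most of the nuclear one, while most ribosomal circRNAs had no nuclear entry. The tables shared 736 circRNAs, 2163 were ribosome-only and 566 were nucleus-only. The nucleus table listed 25.4% of the ribosomal circRNAs (95% Wilson interval 23.8 to 27.0), and the ribosome table listed 56.5% of the nuclear ones (53.8 to 59.2). Among entries made by both callers these shares were 40.1% (460 of 1147) and 79.2% (336 of 424). Letting ends differ by up to 5 bases gave 25.5% and 56.5%. The intervals cover counting error only. The ribosomal libraries held 27431 and 19649 circRNA reads and the nuclear ones 7727 and 7235, so the catalogues differ in depth. At 7235 reads per library 1470 circRNAs would be expected in the ribosome table and 1282 in that of the nucleus. Of these, 528 would be shared, which is 36% of the ribosomal and 41.2% of the nuclear entries.

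The share found in the other table is given by the reads of a circRNA. Of the ribosomal circRNAs with 2 to 4 reads over both libraries, 7.89% were in the nucleus table. With 50 reads or more it was 69.8% (104 of 149). Of the nuclear circRNAs with 2 to 4 reads, 36.1% were in the ribosome table. Between 10 and 19 reads it was 80.5%, and at 50 reads or more 80.6% (25 of 31). Even among the most read entries some were therefore listed on 1 side only. All nucleus-only entries with 50 reads or more came from the Ciri caller alone and had no single gene holding both ends. The most read ribosome-only entries also came from that caller alone, and many had no such gene.

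**Figure D1:**
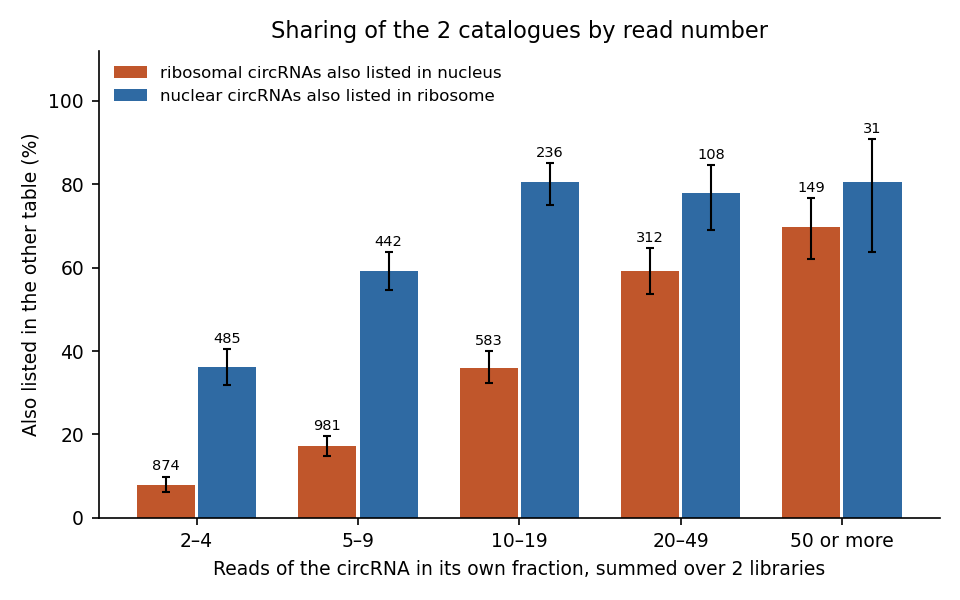
Share of circRNAs also listed in the other table (percent), by their reads in their own fraction summed over 2 libraries, for ribosomal (left bar) and nuclear circRNAs (right bar); error bars are 95% Wilson intervals and the numbers above them count circRNAs. The ribosomal share climbs from 7.89% to 69.8%, and the nuclear share from 36.1% to 80.6%.

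The ribosome fraction had more circRNA reads per library read. RPTM is read here as reads per 10000000 library reads, on library totals implied by the deposited values. CircRNA reads came to 2834 and 2775 RPTM in the ribosomal libraries, against 889 and 918 in the nuclear ones. The means were 2805 ± 41.3 and 904 ± 20.9 RPTM (SD, n = 2 each), a ratio of 3.10. Both ribosomal libraries lay above both nuclear ones, and the exact two-sided permutation test gave p = 0.333, the smallest it allows with 2 against 2. Restricted to entries of both callers the ratio was 2.84. Fewer circRNA copies and a different amount of other RNA in a fraction cannot be told apart in such levels.

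Shared circRNAs carried a larger part of the nuclear reads than of the ribosomal reads. They held 49.6% and 45.2% of the circRNA reads in the ribosomal libraries, against 71.9% and 72.4% in the nuclear ones. For entries made by both callers the shares were 69.9% and 66.4% in the ribosomal libraries and 90.1% and 90.5% in the nuclear ones. For entries of the Ciri caller alone they were 27.0% and 24.0% in the ribosomal libraries and 54.0% and 54.7% in the nuclear ones. The most abundant circRNAs overlapped only in part: 6 of the top 10, 27 of the top 50 and 55 of the top 100 were the same, ranked by level among the circRNAs tested.

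The other tables set the groups of circRNAs apart further. The cytoplasm table listed 64.4% of the ribosome-only, 92.8% of the shared and 52.1% of the nucleus-only circRNAs. The cytosol table listed 55.4% of the ribosome-only, 79.5% of the shared and 27.4% of the nucleus-only circRNAs. The exosome table listed 6.20% of the ribosome-only, 26.2% of the shared and 2.47% of the nucleus-only circRNAs. None of the other 4 tables listed 447 ribosome-only (20.7%), 15 shared (2.04%) and 196 nucleus-only circRNAs (34.6%). These shares also move with reads, since shared circRNAs had the most.

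Individual circRNAs were tested on read counts with edgeR's quasi-likelihood test and Benjamini-Hochberg adjustment over 950 circRNAs, at an adjusted p threshold of 0.05. The fit used all 12 libraries of the 6 fractions. A positive log2 fold change means a higher share, in the ribosome fraction, among the reads of the circRNAs tested, after TMM scaling. It is given with ± its approximate standard error. Of the 950, the ribosome fraction had 287 higher (30.2%) and 143 lower (15.1%). However, 238 of the higher were not listed in the nucleus and 62 of the lower not in the ribosome table. An unlisted circRNA entered the fit as 0 although its reads were not measured, and it passed the filter on reads only through other libraries. These calls therefore serve below only to choose circRNAs to name, and no difference between the fractions is read from them.

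Of the 481 tested circRNAs listed in both tables, 49 were higher (10.2%) and 81 lower (16.8%), and their median log2 fold change was -0.31. The split depends on the settings, as given below, and on the scale, because circRNAs made up a larger part of the ribosomal libraries. On the implied library totals 187 of the 481 were higher (38.9%) and 17 lower (3.53%), with a median of 1.0. All 49 that were higher under TMM were also higher on that scale, which its upward shift makes likely, so this is no separate support for them. The 950 tested gave 497 higher (52.3%) and 78 lower (8.21%) on that scale, where the median of all 950 moved to 1.60, against 0.30 under TMM. Fold changes below are on the TMM scale unless the library totals are named.

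The counts of calls also moved with the libraries and the tool. Without nucleus replicate 1, 18 of the circRNAs listed in both tables were higher and 43 lower, and without nucleus replicate 2 it was 19 and 49. DESeq2 called 12 and 39. Under TMM, higher calls outnumbered lower ones in a fit of the 4 ribosomal and nuclear libraries (66 and 60). The same held with no filter (57 and 41) or a filter of 5 reads in 2 libraries (54 and 46). It also held with only circRNAs listed in both tables (53 and 48) and with Ciri (132 and 75) or CIRC reads only (95 and 59). Lower calls outnumbered higher ones with RLE factors (31 and 108), total circRNA reads (27 and 114) and unlisted circRNAs at 1 read (34 and 82). A total of 14 higher and 78 lower calls listed in both tables passed in each of 4 fits that combined TMM or total circRNA reads with 0 or 1 read for an unlisted circRNA. The nucleus table was written with other decimals than the ribosome table (at most 15 in the ribosome and 10 in the nucleus table), and a difference in how the tables were made cannot be told apart from the fractions.

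**Figure D2:**
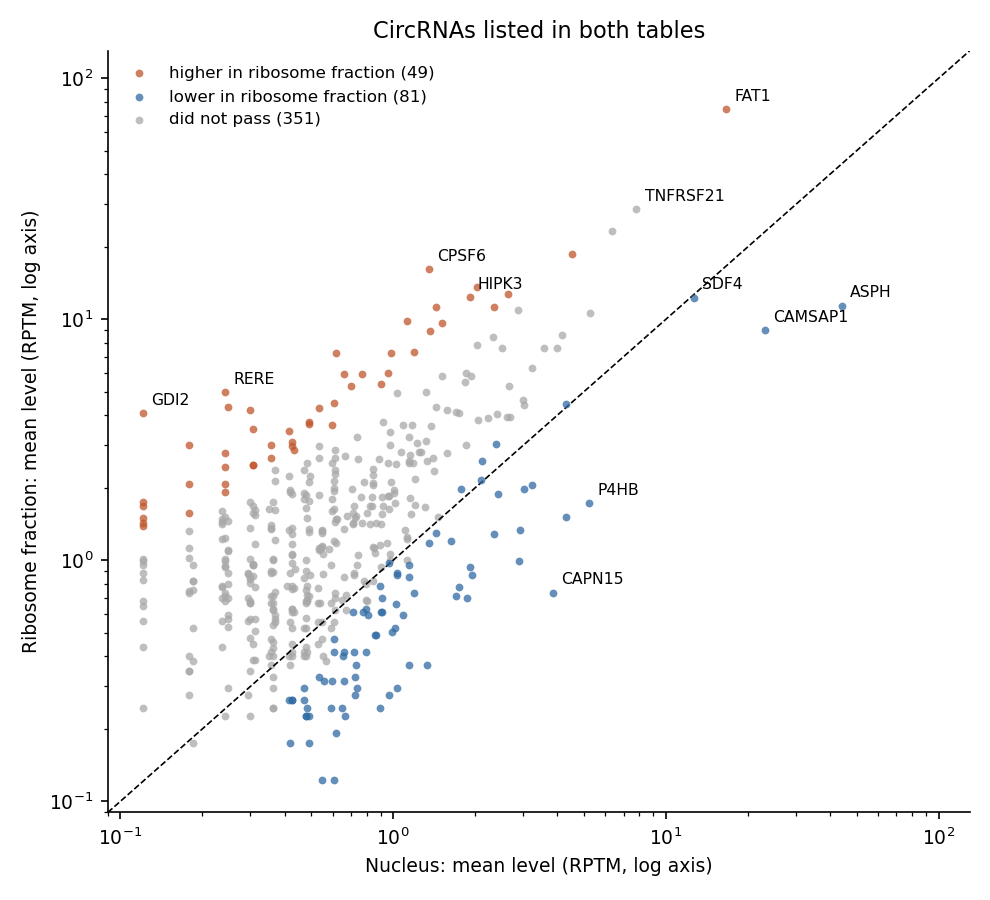
Mean level in the ribosome fraction (vertical, RPTM, log axis) against the nucleus (horizontal, RPTM, log axis) for the 481 tested circRNAs listed in both tables, coloured by the edgeR call; the dashed line marks equal levels. Points called lower under TMM reach the dashed line, as for SDF4, and a few lie above it, as for VAPA and GUSBP1, whereas ASPH, CAMSAP1, P4HB and CAPN15 lie well under it.

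FAT1, which encodes a large atypical cadherin, gave the circRNA with the highest ribosomal level among those tested (chromosome 4, 186706563 to 186709845). It had 807 and 464 reads in the ribosomal libraries, against 140 and 135 in the nuclear ones. Its level was 74.5 ± 12.6 RPTM in the ribosome fraction and 16.6 ± 0.730 RPTM in the nucleus (SD, n = 2 each), with no overlap between the libraries. Such a lack of overlap on the TMM scale was common, at 287 of the 481 circRNAs listed in both tables (59.7%). It was higher by 0.84 ± 0.24 (log2; edgeR adjusted p = 0.0055), and the call was lost without nucleus replicate 1 (0.80, edgeR adjusted p = 0.054). With total circRNA reads as the scale it was 0.53 and did not pass.

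Other abundant circRNAs called higher had the same pattern of a ribosomal level several times the nuclear one. The circRNA of CDYL (chromosome 6, 4891713 to 4892379), whose end is shown above, was at 18.7 ± 3.24 RPTM among ribosomal and 4.51 ± 1.34 RPTM among nuclear libraries, a log2 fold change of 0.74 ± 0.28. The circRNA of UBXN7, a cofactor of the segregase p97 (chromosome 3, 196391813 to 196403019), had 122 and 103 ribosomal reads against 20 and 14 nuclear reads (1.41 ± 0.37). The circRNA of the kinase gene HIPK3 (chromosome 11, 33286413 to 33287511) had 109 and 95 ribosomal reads against 10 and 21 nuclear reads (1.39 ± 0.34). Of these only HIPK3 passed in the 4 fits combined. Each of the 3 lost its call when 1 library was left out: CDYL without ribosome replicate 1 (0.60) or nucleus replicate 1 (0.46), UBXN7 without nucleus replicate 2 (1.24) and HIPK3 without nucleus replicate 1 (0.89). FAM169A, with 118 and 94 ribosomal reads against 27 and 17 nuclear reads (0.95 ± 0.31), lost it without nucleus replicate 2 (0.72).

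Some abundant circRNAs did not pass the test. The circRNA of TNFRSF21, a death receptor gene, had 339 and 158 ribosomal reads against 68 and 61 nuclear reads (0.56 ± 0.27, edgeR adjusted p = 0.093). The circRNA of NRIP1, a corepressor of nuclear receptors, had 83 and 90 ribosomal reads against 40 and 47 nuclear reads (-0.31 ± 0.31, edgeR adjusted p = 0.44). On the implied library totals both were higher, TNFRSF21 by 1.88 and NRIP1 by 1.0. TNFRSF21 also passed as higher under both other read filters, in fits of the 4 libraries or of circRNAs listed in both tables, with either caller alone and without ribosome replicate 2 (0.80 to 0.95).

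The circRNAs with the largest rise among those listed in both tables had 1 to 14 nuclear reads per library. The circRNA of GDI2, which keeps Rab GTPases in their GDP-bound form (chromosome 10, 5794885 to 5800705), had 45 and 25 reads in the ribosomal libraries, against 1 and 1 in the nuclear ones. It was higher by 3.73 ± 0.66 (edgeR adjusted p = 8.4e-05). The circRNA of the transcriptional corepressor gene RERE (chromosome 1, 8655973 to 8656441) had 54 and 31 ribosomal reads against 2 and 2 nuclear reads and was higher by 3.03 ± 0.55. With so few nuclear reads the sizes of these changes are loosely fixed.

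CPSF6, a subunit of the cleavage factor that acts in messenger RNA 3′ end formation, gave the rise with the lowest adjusted p of the 12 largest (chromosome 12, 69251129 to 69262562). Its circRNA had 179 and 98 reads in the ribosomal libraries, against 8 and 14 in the nuclear ones. The levels were 16.2 ± 3.29 RPTM in the ribosome fraction and 1.35 ± 0.606 RPTM in the nucleus, which made it higher by 2.28 ± 0.35 (log2; edgeR adjusted p = 1.6e-05). The circRNA of SOBP had 76 and 47 ribosomal reads against 3 and 7 nuclear reads, a log2 fold change of 2.26 ± 0.49. The circRNA of CHD7, a chromatin remodeller gene, had 31 and 20 ribosomal reads against 2 and 1 nuclear reads (2.72 ± 0.63).

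The other named circRNAs with a rise came from ZBTB46, UTRN, WDR20, PRDM2, PICALM, TNPO3 and PLEKHM3, with log2 fold changes of 2.21 to 2.84 and 1 to 3 nuclear reads per library. UTRN encodes the dystrophin relative utrophin, PICALM a clathrin assembly protein and TNPO3 the import receptor of splicing factors. Of the 12 circRNAs with the largest rise, 7 kept their call whichever library was left out. UTRN, PICALM, TNPO3 and PLEKHM3 lost it without ribosome replicate 1 and without either nuclear library, and PRDM2 without either nuclear library. In the fits that lost the call, the log2 fold changes of these 5 stayed between 1.73 and 2.62.

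**Figure D3:**
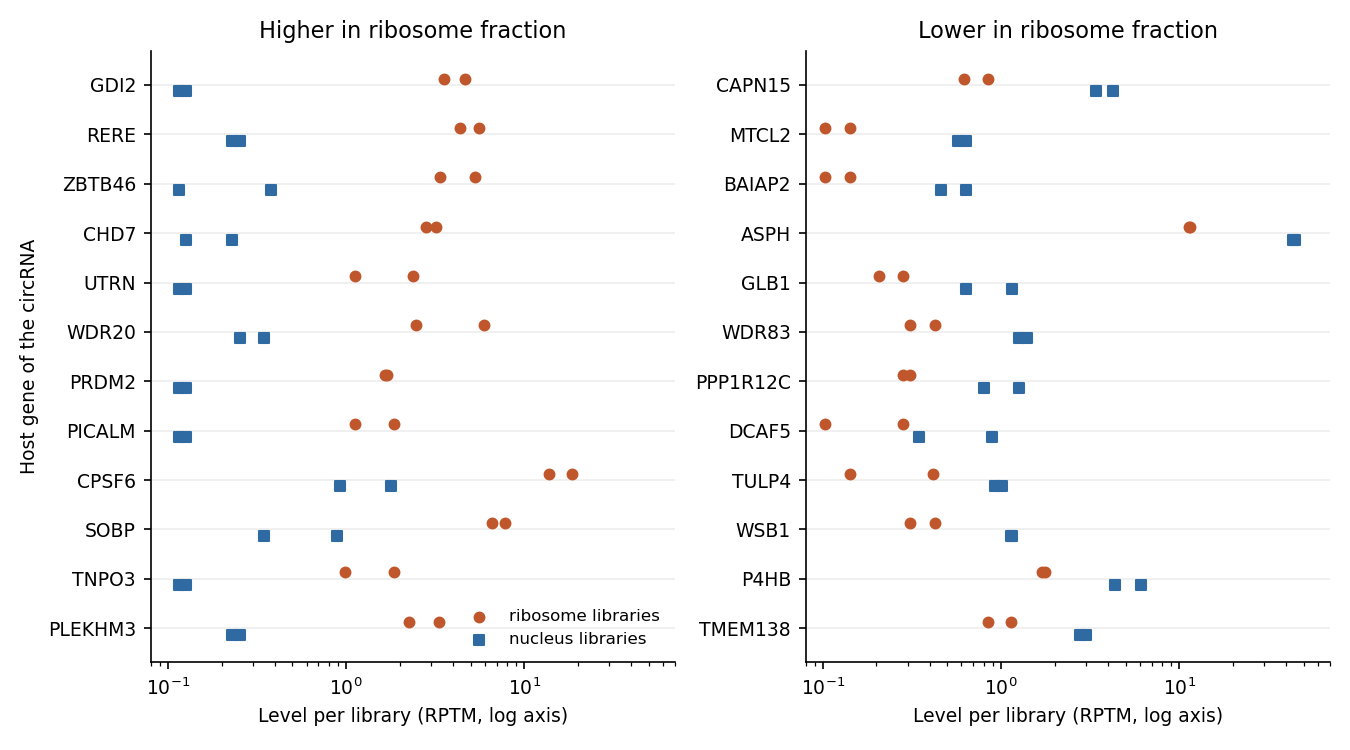
Level per library (RPTM, log axis) of the 12 circRNAs with the largest rise (left) and the largest fall (right) among those called and listed in both tables, with the 2 ribosomal libraries as circles above the 2 nuclear libraries as squares. The circRNAs were chosen for having no overlap between the fractions. Most of those with a fall have under 1 RPTM in the ribosome fraction, ASPH and P4HB being clear exceptions.

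The strongest fall in terms of reads was that of ASPH, the gene of an enzyme in the endoplasmic reticulum that hydroxylates aspartate and asparagine (chromosome 8, 61680968 to 61684188). Its circRNA had 110 and 81 reads in the ribosomal libraries, against 380 and 350 in the nuclear ones. The levels were 11.4 ± 0.0549 RPTM in the ribosome fraction and 44.1 ± 0.508 RPTM in the nucleus. This was the most abundant of the tested circRNAs in the nucleus, and it was lower in the ribosome fraction by -3.27 ± 0.27 (log2; edgeR adjusted p = 4.3e-11). On the implied library totals the change was -1.95. The ASPH circRNA was at 83.4 RPTM in the cytoplasm and 19.2 RPTM in the cytosol, and it was still the tenth of the tested circRNAs in the ribosome fraction.

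CAMSAP1, which binds the minus ends of microtubules, came next (chromosome 9, 135881633 to 135883078). Its circRNA had 109 and 48 ribosomal reads against 199 and 182 nuclear reads, which made it lower by -2.66 ± 0.27 (log2; edgeR adjusted p = 6e-09), and by -1.34 on the implied library totals. A longer CAMSAP1 circRNA that ends at the same base (135866456 to 135883078) had 5 and 3 ribosomal reads against 5 and 5 nuclear reads. It was lower by -1.64 ± 0.65, and that call was lost whichever library was left out and on the implied totals.

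The circRNA of the protein disulphide isomerase gene P4HB (chromosome 17, 81855142 to 81855586) had 17 and 12 ribosomal reads against 38 and 48 nuclear reads. It was lower by -2.91 ± 0.35 (edgeR adjusted p = 2e-07). The circRNA of the calpain gene CAPN15 (chromosome 16, 533946 to 536142) had 6 and 6 ribosomal reads against 37 and 27 nuclear reads and the largest fold change of the falls, -3.72 ± 0.47. The circRNA of TMEM138 had 11 and 6 ribosomal reads against 26 and 22 nuclear reads (-2.83 ± 0.42). In each of these the nuclear libraries lay above the ribosomal ones in raw reads as well as in level.

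The remaining named falls rested on few ribosomal reads. They came from MTCL2, BAIAP2, GLB1, WDR83, PPP1R12C, DCAF5, TULP4 and WSB1, with 1 to 4 ribosomal reads per library against 3 to 11 nuclear reads, and log2 fold changes of -3.55 to -2.96. The GLB1 reads came from the CIRC caller alone in the ribosome fraction and from the Ciri caller alone in the nucleus. GLB1 encodes the lysosomal beta-galactosidase and PPP1R12C a regulatory subunit of protein phosphatase 1. Of the 12 circRNAs with the largest fall, 11 kept their call whichever library was left out, and DCAF5 lost it without nucleus replicate 2 (-2.20).

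Under both scales 17 circRNAs listed in both tables were lower. They were those of ASPH, CAMSAP1, P4HB, CCDC134, CAPN15, BUD23, TMEM138, PRELID2, PDE8A, STK39, WDR83, WSB1, PPP1R12C, TULP4, GLB1, MTCL2 and BAIAP2. The circRNA of CCDC134 had 21 and 6 ribosomal reads against 36 and 35 nuclear reads, and that of BUD23, a methyltransferase gene of ribosomal RNA, had 19 and 5 against 22 and 26. For both, ribosome replicate 1 carried most of the ribosomal reads.

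Other falls held only relative to the rest of the circRNA reads. SDF4 encodes a Golgi protein that binds calcium, and its circRNA (chromosome 1, 1223244 to 1223968) had 111 and 93 ribosomal reads against 94 and 114 nuclear reads. Its levels were 12.3 ± 1.18 RPTM in the ribosome fraction and 12.6 ± 2.59 RPTM in the nucleus, which overlap. Under TMM it was lower by -1.35 ± 0.30 (edgeR adjusted p = 0.00085), and on the implied library totals it was at -0.04. GUSBP1, a pseudogene with near-identical copies, so that its reads are uncertain, was at -1.26 ± 0.32 under TMM and 0.06 on the totals. The circRNA of the vitamin D hydroxylase gene CYP24A1 had 18 and 16 ribosomal reads against 21 and 32 nuclear reads (-1.97 ± 0.37), and -0.65 on the totals, where it did not pass.

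The other tables listed different shares of the circRNAs that rose and fell, which were not tested. The cell table listed 98.0% of the higher and 100% of the lower. The cytosol table listed 49 of the 49 higher (100%), 53 of the 81 lower (65.4%) and 318 of the 351 that did not pass (90.6%). The exosome table listed 71.4% of the higher, 21.0% of the lower and 35.3% of those that did not pass. The cytoplasm table listed 100% of the higher, 93.8% of the lower and 98.6% of those that did not pass. The median ribosomal level was 4.09 RPTM among the higher and 0.592 RPTM among the lower, so the part that level has in these shares was not tested.

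Among called circRNAs listed on 1 side only, the most read ribosomal ones came from PLOD2, ITPR2, ATXN1, KIF5B, XRN2 and TMEFF1. The circRNA of the lysyl hydroxylase gene PLOD2 (chromosome 3, 146121112 to 146124229) had 42 and 36 ribosomal reads. That of the inositol trisphosphate receptor gene ITPR2, whose ends lie 105606 bases apart, had 30 and 42. ATXN1 had 44 and 25 ribosomal reads, XRN2, a nuclear exoribonuclease gene, 40 and 21, the kinesin gene KIF5B 36 and 26, and TMEFF1 33 and 28. None was listed in the nucleus, and no fold change is given against an unlisted fraction. All except KIF5B were listed in the cytosol.

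The nuclear counterparts had fewer reads. The circRNA of AP3D1, a subunit of the adaptor complex AP-3 (chromosome 19, 2137727 to 2138714), had 22 and 12 nuclear reads and no ribosomal entry. The helicase gene BRIP1 had 13 and 17, the sorting nexin gene SNX11 13 and 10, CTNNBIP1, an inhibitor of beta-catenin, 13 and 8, and the mitochondrial ribosomal protein gene MRPL4 and the kinesin gene KIF2C 9 and 12 each. In the cytosol only BRIP1 and SNX11 of these 6 were listed, at 0.149 and 0.649 RPTM.

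Some hosts gave circRNAs that differed in where they were listed. The named examples each include a circRNA that 1 table does not list, so they are a description. ORC4, a subunit of the origin recognition complex, gave a pair that shares the start 147972739 on chromosome 2. The shorter one, ending at 147975975, had 10 and 5 ribosomal reads against 7 and 10 nuclear reads and was lower by -1.52 ± 0.52. The longer one, ending at 147982081, had 25 and 26 ribosomal reads and no nuclear entry. The call of the shorter one was lost without ribosome replicate 2 (-1.35) or nucleus replicate 2 (-1.17) and on the implied totals (-0.21).

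PDE8A, a cyclic AMP phosphodiesterase gene, gave a similar pair from the start 85113873 on chromosome 15. The shorter, ending at 85115487, had 4 and 8 ribosomal reads against 16 and 13 nuclear reads, and the longer, ending at 85121014, had 7 and 4 ribosomal reads and no nuclear entry. VAPA, ETFA and CEP192 also gave pairs that share an end or a start. For VAPA, a membrane anchor of the endoplasmic reticulum, the lower circRNA (28 and 16 ribosomal reads against 17 and 18 nuclear reads) was at -1.02 ± 0.36 under TMM and 0.30 on the implied totals. It did not pass without ribosome replicate 2 (-0.91), nucleus replicate 1 (-1.13) or nucleus replicate 2 (-0.91). FAT1 had, beside its abundant circRNA, one of 315 bases (186663299 to 186663613) with 5 and 9 nuclear reads and no ribosomal entry.

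The host genes overlapped more than the circRNAs did, where a host counted as in both if each table listed any of its circRNAs. Pooling circRNAs by host can raise the overlap by itself, so nothing is concluded from the higher share. The ribosomal circRNAs came from 1704 hosts and the nuclear ones from 969, and 684 hosts were in both, which is 40.1% of the ribosomal and 70.6% of the nuclear hosts. Of the 566 nucleus-only circRNAs, 225 (39.8%) came from a host with a ribosomal circRNA, and 106 (18.7%) shared a start or an end with one. ITPR2 and UBAP2 gave 13 ribosomal circRNAs each, against 3 and 6 nuclear ones. BIRC6, an inhibitor of apoptosis gene, gave 12 ribosomal circRNAs against 1 nuclear, and AFDN 8 against 0. These rested on 67 ribosomal reads for BIRC6 and 48 for AFDN. The tables listed 2899 ribosomal and 1302 nuclear circRNAs in all, and the part of depth in the numbers per host was not tested. A few hosts ran the other way: MAD1L1, a spindle checkpoint gene, gave 2 ribosomal against 9 nuclear circRNAs, and the tubulin cofactor gene TBCD 6 against 8. ANKRD36C, a gene with near-identical relatives, so that its entries are uncertain, gave 3 ribosomal and 7 nuclear circRNAs, none of them shared.

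Lists of host genes were described by counts, set beside 49 higher (10.2%) and 81 lower (16.8%) and the median of -0.31 over all 481 circRNAs listed in both tables. On the implied totals the counts over all 481 were 187 higher (38.9%) and 17 lower (3.53%). Hosts that act on RNA and chromatin gave rises and no call lower. Of 16 circRNAs from RNA-binding and splicing factor genes, 4 were higher and 0 lower, with a median log2 fold change of 0.77. CPSF6, above, and RBM33 were the most read: the RBM33 circRNA had 57 and 33 ribosomal reads against 10 and 2 nuclear reads (1.56 ± 0.48), and lost its call without nucleus replicate 2 (0.88). Of 22 circRNAs from chromatin regulator genes, 6 were higher and 0 lower, with a median of 0.82. CDYL and ASXL1 were the most read of these, with ASXL1 at 83 and 99 ribosomal reads against 21 and 18 nuclear reads (0.94 ± 0.38). The ASXL1 call was lost without ribosome replicate 2 (0.50) or either nuclear library (0.98 and 0.90). On the implied totals 10 of the 16 and 16 of the 22 were higher and 0 lower.

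Ubiquitin enzyme and ligase genes gave 19 circRNAs, with 5 higher, 0 lower and a median of -0.19. UBXN7 led, followed by the ligase gene MIB1 with 49 and 16 ribosomal reads against 3 and 5 nuclear reads (1.63 ± 0.55), whose call was lost without ribosome replicate 1 (0.95) or nucleus replicate 1 (1.24). Membrane trafficking genes gave 14, with 3 higher and 1 lower: GDI2, and VAPB with 71 and 75 ribosomal reads against 15 and 8 nuclear reads (1.37 ± 0.37, but 1.05 and not passing without nucleus replicate 2), against VAPA, whose call was lost in 3 of the 4 fits without 1 library. Nuclear transport genes gave 6, with only TNPO3 higher and 0 lower. Protein kinase genes gave 18, with 2 higher (HIPK3 and the activin receptor gene ACVR2A at 1.54 ± 0.53, lost without either nuclear library at 1.28 and 1.83) and 3 lower. The lower ones included STK39 at -2.54 ± 0.53 and MAPK9 at -2.15 ± 0.85. MAPK9 rested on 2 and 3 ribosomal reads against 2 and 7 nuclear reads and did not pass without ribosome replicate 1 (-1.60) or nucleus replicate 2 (-0.92).

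Secretory and cytoskeletal hosts gave few circRNAs and few calls under TMM, where 10.2% of all 481 were higher and 16.8% lower. Of 10 circRNAs from genes of the endoplasmic reticulum and secretory lumen, 0 were higher and 3 lower, those of ASPH, SDF4 and P4HB, with a median of -0.67. On the implied library totals 3 of the 10 were higher and 2 lower, against 38.9% and 3.53% over all 481. Of 8 from cytoskeleton and motor genes, 0 were higher and 2 lower, both from CAMSAP1, and on the totals 1 was higher and 1 lower. The call of the longer CAMSAP1 circRNA was lost whichever library was left out, as given above. Secreted liver protein and hepatocyte metabolism genes gave 4, of which CYP24A1 was lower and 0 were higher, and on the totals 1 was higher and 0 lower.

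Lists of hosts tied to translation were small among circRNAs listed in both tables. Of 5 circRNAs from translation factor and tRNA synthetase genes 0 were higher and 1 was lower, that of GCN1, a ribosome-bound activator of the stress kinase GCN2. It had 30 and 6 ribosomal reads against 27 and 23 nuclear reads (-1.85 ± 0.41), so the ribosomal libraries differed widely, and on the totals it was at -0.54 and did not pass. Of 6 circRNAs from hosts of circRNAs reported elsewhere as translated, 1 was higher, UBXN7, and 0 lower, with a median of -0.31. Of 51 from hosts known for their circRNAs, 12 were higher and 3 lower (median 0.41). Of 6 from hosts reported for nuclear or intron-retaining circRNAs, 1 was higher, RBM33, and 2 were lower, GCN1 and ANKRD11. The ANKRD11 call (-1.48 ± 0.52) was lost without ribosome replicate 2 (-1.10) or nucleus replicate 1 (-0.62). It was also lost on the implied totals (-0.16), under both other read filters, with only circRNAs listed in both tables, with CIRC reads only and with DESeq2. On the totals 3 of these 6 circRNAs were higher and 0 lower.

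**Figure D4:**
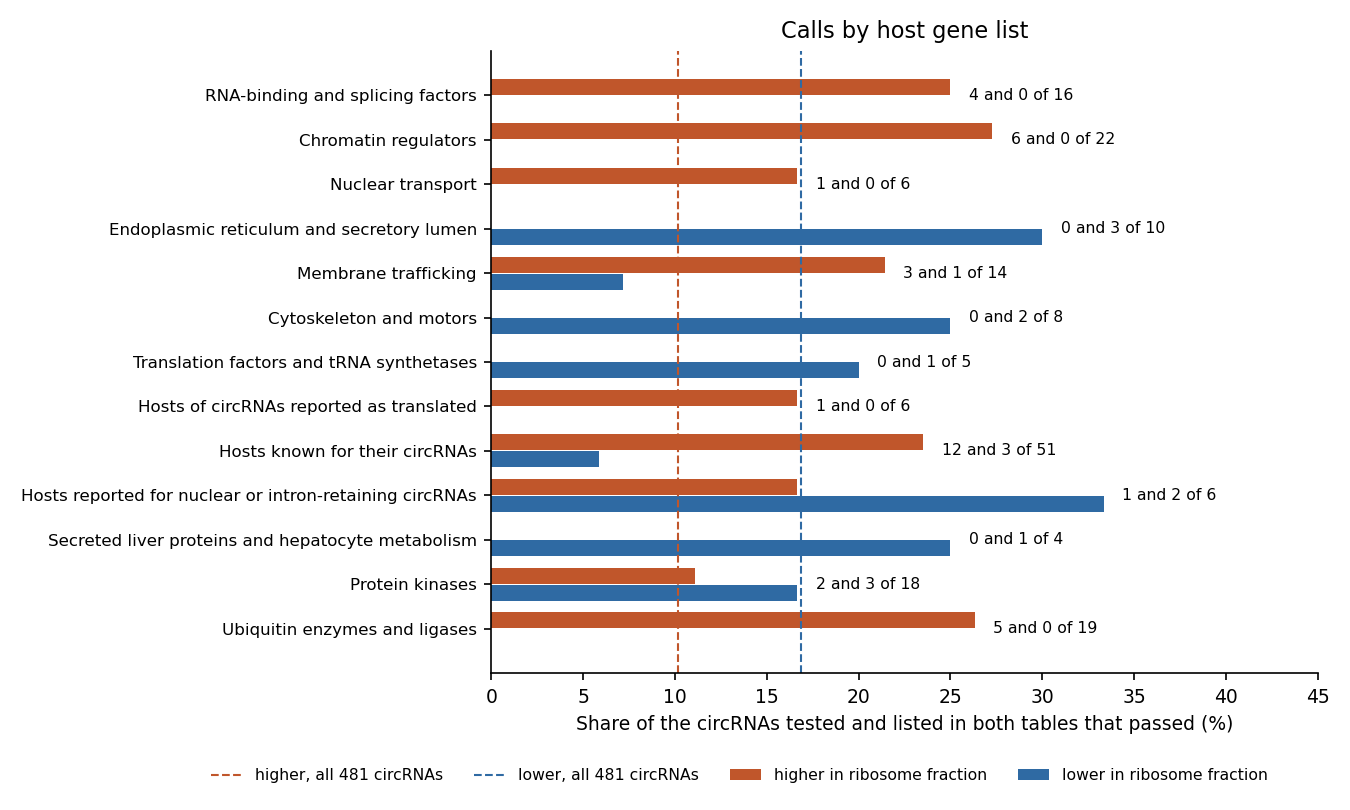
Share of tested circRNAs listed in both tables that were higher (upper bar) or lower (lower bar) in the ribosome fraction, in percent, for 13 lists of host genes; the text gives higher and lower counts of the list's total and the dashed lines mark the shares over all 481. RNA-binding, chromatin, ubiquitin, nuclear transport and translated-host lists have no bar for lower. The secretory, cytoskeletal, translation factor and secreted liver lists have none for higher, and several lists are small.

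Ribosome-only circRNAs spanned more genome than the others. The median distance between the ends was 7068 bases for ribosome-only, 3622 for shared and 3004.5 for nucleus-only circRNAs. Spans of up to 1000 bases made up 14.9% of the ribosome-only, 21.7% of the shared and 25.4% of the nucleus-only circRNAs. Spans above 50000 bases made up 8.46% of the ribosome-only, 3.80% of the shared and 6.01% of the nucleus-only ones. Among those with at least 10 reads the order was another one, with spans above 50000 bases at 10.8% of ribosome-only, 4.91% of shared and 18.4% of nucleus-only circRNAs. Among entries of both callers the ribosome-only median was 6310 and the nucleus-only median 2530 bases. There, spans above 50000 bases made up 5.82% of ribosome-only, 3.20% of shared and 2.27% of nucleus-only circRNAs. Nucleus-only circRNAs with at least 10 reads had a median of 4972.5 bases, so that median depended on the read minimum. Among the 481 listed in both tables the fold change hardly followed the span (Spearman 0.13, Pearson 0.13, as a description over circRNAs that share the same 4 libraries). The median span was 4624 bases for the 49 higher, 2824 for the 81 lower and 3825 for the 351 that did not pass. The tables give no exons, so spliced lengths were not analysed here.

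The catalogues also differed by chromosome, as seen after the values were examined. Chromosome 19 held 2.69% of the ribosomal and 4.76% of the nuclear circRNAs, the lowest ratio of the autosomes and X (0.565). Chromosome 16 held 5.14% of the ribosomal and 7.45% of the nuclear circRNAs. On chromosome 19, 9 of the 20 tested circRNAs listed in both tables were lower and 0 higher, with a median log2 fold change of -1.19. WDR83, PPP1R12C and POLD1 (9 and 7 ribosomal reads against 11 and 8 nuclear reads, -1.57 ± 0.51) were among those lower. On the implied totals 3 of the 20 were higher and 2 lower, with a median of 0.13, against 1.0 over all 481.

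**Figure D5:**
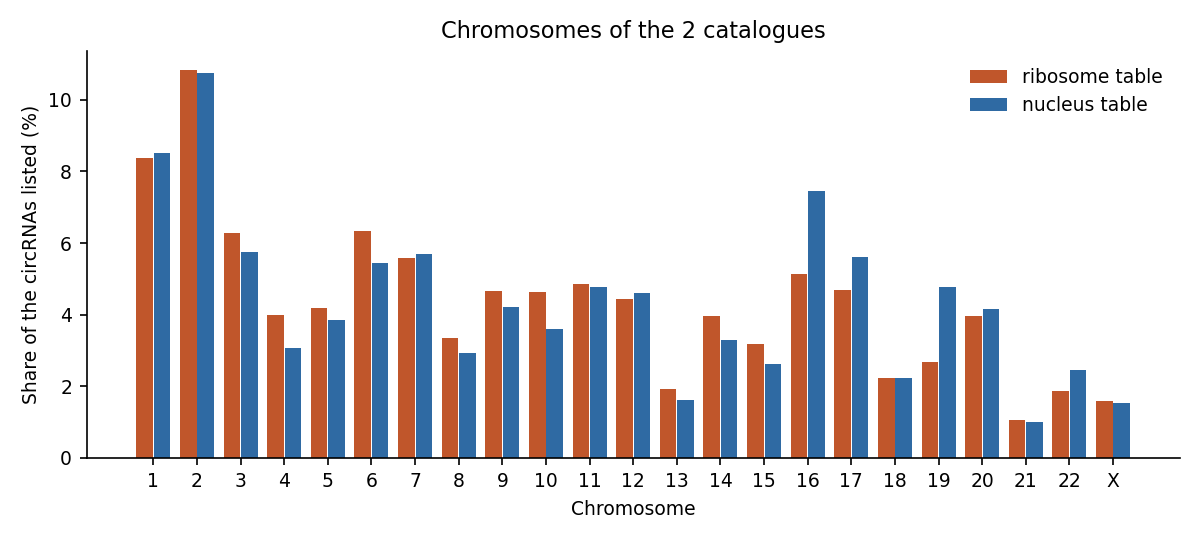
Share of the circRNAs listed that lie on each chromosome (percent), for the ribosome table (left bar) and the nucleus table (right bar). The nuclear bar is clearly above the ribosomal one on chromosomes 16, 17, 19 and 22 and slightly above it on 1, 7, 12 and 20, and on chromosome 19 the shares are 2.69% and 4.76%.

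Some of the most read entries joined near-identical genes and are uncertain. They were made by the Ciri caller alone and entered no test. The largest ribosomal entry ran from the tubulin gene TUBA1B to its neighbour TUBA1A (chromosome 12, 49129500 to 49186458), with 1387 and 874 reads, or 5.06% and 4.45% of the circRNA reads of the ribosomal libraries, and no other table listed it. An entry from TUBG1 to TUBG2 had 416 and 241 ribosomal reads. On chromosome 16, entries that share the start 21519828 in a pseudogene region ended at 21919103 in the ribosome table (329 and 228 reads) and at 21916024 in the nucleus table (292 and 209 reads), and each counted as listed on 1 side. An entry from SULT1A2 to SULT1A1, sulphotransferase genes, was shared, with 263 and 149 ribosomal reads against 231 and 214 nuclear reads.

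Entries without a host, such as these, held 15% and 13.5% of the circRNA reads in the ribosomal libraries, against 14% and 13.1% in the nuclear ones. The CIRC caller listed 0 of the 124 such entries in either table. Some abundant entries within 1 gene were also of 1 caller. Ribosomal entries of DDX5, an RNA helicase gene (114 bases, 330 and 540 reads), and of the splicing factor gene HNRNPA2B1 (285 and 483 reads) came from the Ciri caller alone and were in no other table. In both of them ribosome replicate 2 had more reads than replicate 1, although replicate 1 held more circRNA reads in all.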

How the data were processed

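The deposited tables give whole-number counts of back-splice reads per library for 2 callers headed Ciri and CIRC, and RPTM values (reads per 10000000 library reads, another unit, as read here) that the authors derived from them, per the file headers. RPTM was a linear function of the counts and implied the library totals, 96.8 M and 70.8 M reads in the ribosomal and 86.9 M and 78.8 M in the nuclear libraries. What these totals count, the aligner and the caller versions are not given in the sources used here, and the build is hg38, per the submitters' processing notes. Each caller listed a circRNA only if neither library lacked reads of it, so a circRNA that is absent is unlisted, not a measured 0. The 2 mitochondrial samples were not analysed here.

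Reads of a circRNA were averaged over the callers that list it and rounded. Hosts were RefSeq genes (GRCh38.p14) holding both ends, protein-coding first, without regard to strand, so an antisense or overlapping gene may stand as host. Of 11227 circRNAs, both callers listed 4679 in 1 table or more, and 950 of these passed filterByExpr with a minimum count of 10. Counts were tested with edgeR 4.0.16 in R 4.3.3 (quasi-likelihood, TMM, Benjamini-Hochberg), in 1 fit with a coefficient for each of 6 fractions, after tests on simulated data. The standard error is the absolute log2 fold change over the square root of F. DESeq2 1.42.0, other scalings, filters and callers, and fits without 1 library were alternatives. In the last, the lone library of a fraction is assumed to vary like the other fractions. Replicates differed by more than sampling noise (chi-square per degree of freedom 2.28 in the ribosome fraction and 1.20 in the nucleus, p = 9.2e-106 and 0.0047), so none was merged.

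Members, gene lists and alternatives were chosen with earlier results of these data known. Named were the 12 largest changes in each direction among called circRNAs listed in both tables without overlap, at most 1 per host, the 10 most abundant tested per fraction, the 6 most read called ones listed on 1 side, 8 hosts with calls in both directions, and the 2 most read called members per list and direction. Others named were chosen after their values were seen. One of the abundant circRNAs that this rule names is not reported here.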

Additional observations from a re-analysis of the deposited data

How the results depend on the processing

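The calls depended on the scale, the nuclear libraries and how unlisted circRNAs were entered, and the cause was not tested. Against 287 higher and 143 lower circRNAs, the counts higher were 497 on implied library totals, 477 with no filter, 75 with unlisted circRNAs at 1 read, 72 with DESeq2, 53 with only circRNAs listed in both tables and 43 kept in 4 fits (the last added after the data were examined). The counts lower were 78 on implied totals and 48 with only circRNAs listed in both tables. Leaving out 1 library in turn gave 81 to 262 higher and 96 to 131 lower. For circRNAs listed in both tables, 49 higher became 187 on implied totals, 132 and 95 with Ciri or CIRC reads only, 31 with RLE factors, 27 with total circRNA reads, 12 with DESeq2, 14 kept in 4 fits, and 18 to 46 leaving out 1 library. The 81 lower became 17 on implied totals, 41 with no filter, 46 with a filter of 5 reads in 2 libraries, 48 with only circRNAs listed in both tables, 39 with DESeq2, and 43 to 69 leaving out 1 library. With the replicate block it was 289 higher and 146 lower, and the numbers did not pair the samples (correlation of deviations -0.06 over 950 circRNAs). The block lost 1 call among the named circRNAs, an ETFA one, and changed no other.

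The share of ribosomal circRNAs listed in the nucleus was 40.1% for entries of both callers and 47.8% with at least 10 reads, and that of nuclear circRNAs in the ribosome fraction 79.2% and 79.7%. At the nuclear total the ribosome table was expected to list 1470. The ribosome-only median span was 6310 for entries of both callers and 10640 weighted by reads, and the nucleus-only one 2530, 4972.5 with at least 10 reads and 6341 weighted by reads. The level ratio ran from 3.05 to 3.16 leaving out 1 library. Single log2 fold changes that reversed were, with CIRC reads only, GLB1 (4.46), PPP1R12C (4.76) and the STK39 circRNA 168012634 to 168075231 (4.45), where that caller lacked a nuclear entry, and 0.00 for the ETFA circRNA 76283757 to 76292700, the STK39 circRNA 168161787 to 168182090 and MAPK9. With Ciri reads only it was 0.00 for the longer VAPA circRNA, and on implied totals 1.0 for NRIP1, 0.059 for GUSBP1 and 0.30 for the shorter VAPA circRNA. The nuclear libraries held only 7727 and 7235 circRNA reads, and the part of depth in the calls was not tested.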
